A study of Homo sapiens and Mus musculus with 213 samples.

Results

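The genes that write, remove or read DNA methylation were followed by RNA-seq in HEK293T cells, a widely used immortalized human line of embryonic kidney origin. They were chosen by name: the writers DNMT1, DNMT3A and DNMT3B with their cofactor UHRF1, the erasers TET1, TET2, TET3 and TDG, and the reader MBD2. All 9 were found among the 58336 genes listed, and all were among the 20884 genes whose mean normalised read count of at least 10 allowed a test. The study compared 3 lines, with 3 libraries each. MYC WT cells keep the natural sequence of the MYC promoter, in which runs of G fold into a G-quadruplex (G4), a stack of G tetrads. In MYC MUT cells point mutations in those G runs prevent folding, and in SWP cells another G4-forming motif replaces the natural one. Both edited lines were derived with CRISPR/Cas9 from the same parental cells and sorted as homozygous clones, so differences between clones and differences that follow the edit cannot be told apart. The number of clones behind the libraries of a line is not given in the sources used here. In addition, a sequencing pool is named in the column headers of MYC WT alone and not of the edited lines, so pool and editing cannot be told apart either.

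Methylation of cytosine in CpG pairs is copied to the new strand at each round of replication by DNMT1, which UHRF1 brings to half-methylated DNA. DNMT3A and DNMT3B place methyl groups on unmethylated DNA. The TET dioxygenases oxidize the methyl group, and the glycosylase TDG cuts out some of the oxidized bases for repair. Methyl-CpG binding proteins such as MBD2 carry the mark to chromatin-modifying complexes. The libraries measured RNA, and methylation itself was not measured here.

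TET1 was the single member called in MYC MUT cells, where its normalised read count was 66.1% of that in MYC WT cells and 64.7% of that in SWP cells. DNMT3B fell by a smaller amount in both edited lines, to 86.4% of MYC WT in MYC MUT and to 76.7% in SWP. No change passed the test for the other 7 genes in any of the 3 comparisons, in the fit without pairing of libraries. With same-numbered libraries paired, TDG passed by the adjusted p alone in SWP against MYC WT (0.00915) and in MYC MUT against SWP (0.0496). DNMT1 and DNMT3A passed under some alternatives in MYC MUT against MYC WT, that pairing among them. Here a gene is called when limma, run over all genes tested, gives it an adjusted p below 0.05 together with a log2 fold change of more than 0.5 in size. Among the 9 members, 1 was called lower in MYC MUT against MYC WT, beside 10.1% of all genes tested, and 0 were called higher, beside 11.3% (21.4% in either direction). In SWP against MYC WT 0 of 9 were called, where 2.98% of all genes were called lower and 2.15% higher (5.13% in all). There, DNMT3B alone passed by the adjusted p alone, beside 9.97% of all genes (5.48% lower and 4.49% higher), and DNMT3B and TDG had an unadjusted p under 0.05. In MYC MUT against SWP 1 of 9 was called lower, where 8.31% of all genes were (12.3% higher and 20.6% in all), and the same gene was the 1 that passed by the adjusted p alone, beside 17.2% lower and 38% in all (with pairing, DNMT3B and TDG passed too). By the adjusted p alone, 2 of 9 were lower in MYC MUT than in MYC WT, beside 19.8% of all genes (38.4% in either direction).

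Library values of 4 of the 9 did not overlap between MYC MUT and MYC WT (DNMT1, DNMT3A, DNMT3B and TET1), all 4 lower in MYC MUT, whereas that held for 26.4% of all genes in this direction and 52.3% in either. Between SWP and MYC WT 1 of 9 did not overlap (DNMT3B, lower), beside 15.5% of all genes lower and 24.6% in all. Between MYC MUT and SWP 2 of 9 did not (TET1 and TDG, lower in MYC MUT), beside 23% lower and 52.3% in all. The 3 comparisons share libraries and are not independent of each other.

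The libraries held 65024354 to 98497026 reads on genes. Libraries of one line all differed beyond counting error (chi-square over degrees of freedom, 9.1 to 60.2), and replicate 1 stood farthest from the others in both MYC WT and SWP. MYC, the edited gene, had 20020, 28396 and 21580 normalised counts in MYC WT, 10693, 11176 and 12400 in MYC MUT, and 14480, 24743 and 25245 in SWP. Its log2 fold change was -1.02 ± 0.19 (SE) in MYC MUT against MYC WT (limma, adjusted p = 0.00182) and -0.15 ± 0.19 in SWP against MYC WT (adjusted p = 0.712). All 8 HEK293T markers checked were present, with a summed normalised count of 77586 to 89086 in MYC WT, 80944 to 92397 in MYC MUT and 68633 to 77700 in SWP. VIM made up most of these sums, and other markers differed between the lines: the mean count in MYC WT, MYC MUT and SWP was 7014, 14778 and 4842 for NEFL, 462, 782 and 190 for KRT8, and 1043, 1159 and 2864 for INA. Of 9 markers of mature kidney, 2 (LRP2 and CUBN) reached a mean count of 10, with a summed count of 3587 to 4616, 3578 to 4421 and 4177 to 5097 in the same order, and the tubule marker UMOD was at 0. Of the 3 fibroblast markers 1 was above that minimum, and 0 of 3 immune and 0 of 2 endothelial markers were. The higher share of the genes called between MYC MUT and MYC WT was 52.8%, and 64.3% when the libraries were scaled to equal totals instead.

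Per length, DNMT1 was the most abundant of the 9 transcripts in each line, and TET2 the least. Length here is that of all annotated exons of a gene merged (15379 bases for DNMT1, 16474 for TET2). It is not that of the transcripts present in these cells, so the order depends in part on the annotation. In MYC WT cells DNMT1 had 1958 ± 149 normalised counts per kb of exon (SD, n = 3), followed by UHRF1 with 1322 ± 103, TDG with 936 ± 175 and DNMT3B with 865 ± 38.6. Then came MBD2 with 496 ± 24, TET1 with 466 ± 65.8, TET3 with 199 ± 30.9, DNMT3A with 196 ± 30.7 and TET2 with 140 ± 3.81. Among neighbours in that order, TDG and DNMT3B, MBD2 and TET1, and TET3 and DNMT3A overlapped in their libraries. The order of the means was the same in all 3 lines. In MYC MUT cells no neighbours overlapped, and TET1 stood at 308 ± 28.1 per kb, below MBD2 (471 ± 14) and above TET3 (198 ± 16.3). TET1 was thus the most abundant TET transcript per length in every line.

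**Figure D1:**
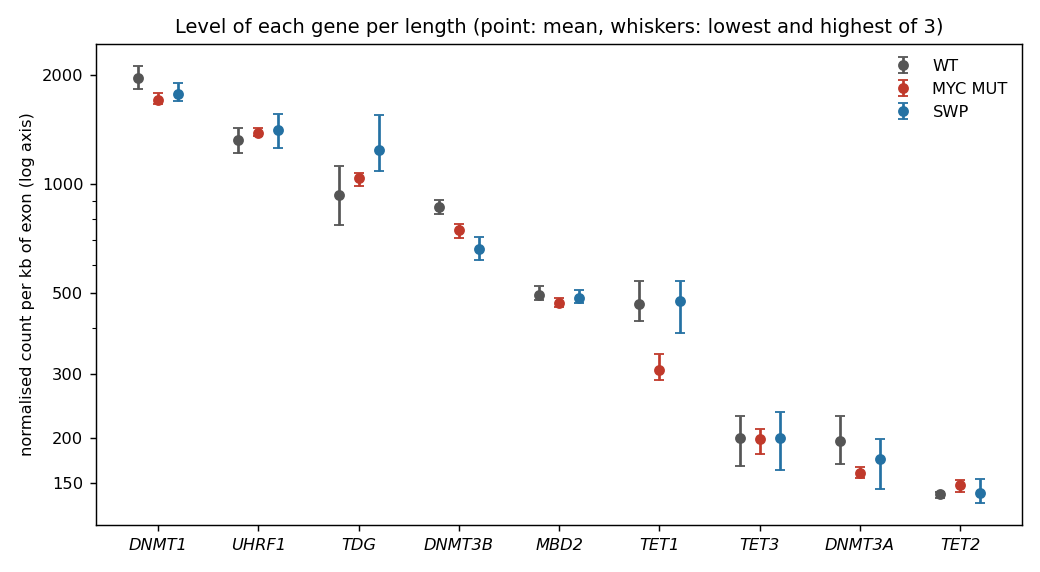
Mean normalised read count per kb of exon (log axis) for the 9 genes in MYC WT, MYC MUT and SWP cells, with whiskers from the lowest to the highest of 3 libraries. TET1 in MYC MUT lies below both other lines, at 308 against 466 and 476, while the order of the genes is shared.

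The maintenance genes differed little between the lines. DNMT1, the maintenance methyltransferase, lies on the minus strand at chr19:10133342-10231286 (hg38). It had 28082, 32602 and 29644 normalised counts in MYC WT, 25972, 25576 and 27447 in MYC MUT, and 26662, 26045 and 29286 in SWP. The MYC MUT libraries were all below those of MYC WT, whereas SWP overlapped both. The log2 fold change was -0.19 ± 0.074 in MYC MUT against MYC WT (limma, adjusted p = 0.0616) and -0.14 ± 0.074 in SWP against MYC WT (adjusted p = 0.293), and neither passed the test. Without replicate 1 of MYC WT the first was -0.24 and passed by adjusted p alone (0.0302), whereas it was -0.13 without replicate 2 of MYC WT (adjusted p = 0.194) and -0.12 at equal totals (adjusted p = 0.239). With the replicate number as a block it was -0.19 and also passed by adjusted p alone (0.0223). S1PR2, which overlaps DNMT1 on the same strand, had 513 to 842 counts, and reads of both could be split between them.

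UHRF1 (chr19:4903080-4962154, plus strand) recognises hemimethylated CpG and flanking histone marks. It had 7340, 6284 and 6787 counts in MYC WT, 6980, 7080 and 7366 in MYC MUT, and 8012, 6475 and 7355 in SWP. All 3 lines overlapped. The difference of MYC MUT from MYC WT was 0.073 on the log2 scale, with a 95% interval from -0.12 to 0.26. The number of DNMT1 counts per UHRF1 count, in which library scaling cancels, was 4.43 in MYC WT (3.83 to 5.19) and 3.69 in MYC MUT (3.61 to 3.73). These ranges did not overlap, with p = 0.1 in a two-sided exact permutation test, the lowest p possible for 3 against 3 libraries. SWP, at 3.76 (3.33 to 4.02), overlapped both.

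Of the de novo enzymes, DNMT3B was lower in both edited lines and DNMT3A passed the test in neither in the unpaired fit. DNMT3A (chr2:25227855-25342590, minus strand) had 2332, 3162 and 2605 counts in MYC WT, 2172, 2141 and 2294 in MYC MUT, and 1982, 2507 and 2729 in SWP. MYC WT lay wholly above MYC MUT, closest in replicate 1 of the former (2332) and replicate 3 of the latter (2294), and SWP overlapped both. The log2 fold change was -0.28 ± 0.13 in MYC MUT (limma, adjusted p = 0.105) and -0.17 ± 0.13 in SWP (adjusted p = 0.487), both against MYC WT. The first passed without replicate 1 of MYC WT (-0.38, adjusted p = 0.0366) and without replicate 1 of SWP, which enters this comparison only through the estimate of the spread (-0.28, adjusted p = 0.0388), and it shrank to -0.16 without replicate 2 of MYC WT (adjusted p = 0.347). With the replicate number as a block it passed by the adjusted p alone (-0.28, adjusted p = 0.0255).

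DNMT3B (chr20:32762385-32809359, plus strand), the de novo enzyme that is abundant in embryonic cells, had 6210, 5680 and 5953 counts in MYC WT, 4894, 5180 and 5339 in MYC MUT, and 4238, 4538 and 4917 in SWP. Both edited lines lay wholly below MYC WT, and they overlapped each other by replicate 1 of MYC MUT and replicate 3 of SWP. The log2 fold change in SWP against MYC WT was -0.38 ± 0.073 (limma, adjusted p = 0.00661), with a 95% interval from -0.54 to -0.22. In MYC MUT against MYC WT it was -0.21 ± 0.073 (adjusted p = 0.0394, interval from -0.37 to -0.051). Neither reached the fold of 0.5 required for a call. The fall in SWP passed under all alternatives tried, but that in MYC MUT did not pass at equal library totals (-0.14, adjusted p = 0.161) nor without replicate 1 of MYC WT (-0.18, adjusted p = 0.0986). MYC MUT was 0.17 ± 0.073 above SWP (adjusted p = 0.0836), a difference that passed once same-numbered libraries were paired as a block (adjusted p = 0.0375).

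Genes around DNMT3B were on balance higher, not lower, in MYC MUT. The tested genes within 5 Mb of it were at 0.37 in MYC MUT and -0.04 in SWP against MYC WT (median of their log2 fold changes), beside a median over all genes of -0.00338 and -0.0554. DNMT3B counts per DNMT3A count were 2.22 in MYC WT (1.8 to 2.66), 2.33 in MYC MUT (2.25 to 2.42) and 1.91 in SWP (1.8 to 2.14), and the ranges of MYC MUT and SWP did not overlap (exact permutation test, p = 0.1). DNMT3L, the catalytically inactive partner that stimulates both de novo enzymes in germ cells, had 0 reads in every library, which allows up to 3 reads per library.

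A start region of DNMT3B is shown because the study edited a promoter G4 and this gene was lower in both edited lines. The start that the RefSeq table gives lies inside the gene, downstream of the first starts in GENCODE, and which start these cells use was not measured here. The 250 bases before it (GRCh38.p14, chr20:32779602-32779851, plus strand) hold 3 CpG pairs, beside a median of 11 over the 35116 promoter windows of that table. Capitals mark a match to 4 copies of GGG with 1 to 7 bases of any kind between neighbouring copies, searched on both strands, a letter pattern that G4-forming sequences share.
DNMT3B: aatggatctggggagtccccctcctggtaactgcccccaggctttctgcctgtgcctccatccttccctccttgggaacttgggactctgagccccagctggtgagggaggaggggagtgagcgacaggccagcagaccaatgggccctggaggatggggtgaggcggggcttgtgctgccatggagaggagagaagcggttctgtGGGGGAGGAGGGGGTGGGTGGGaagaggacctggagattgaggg
The match lies on the gene's own strand. Windows with such a match on either strand made up 23.3% of all windows, and 13.2% had one on the gene's strand.

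**Figure D2:**
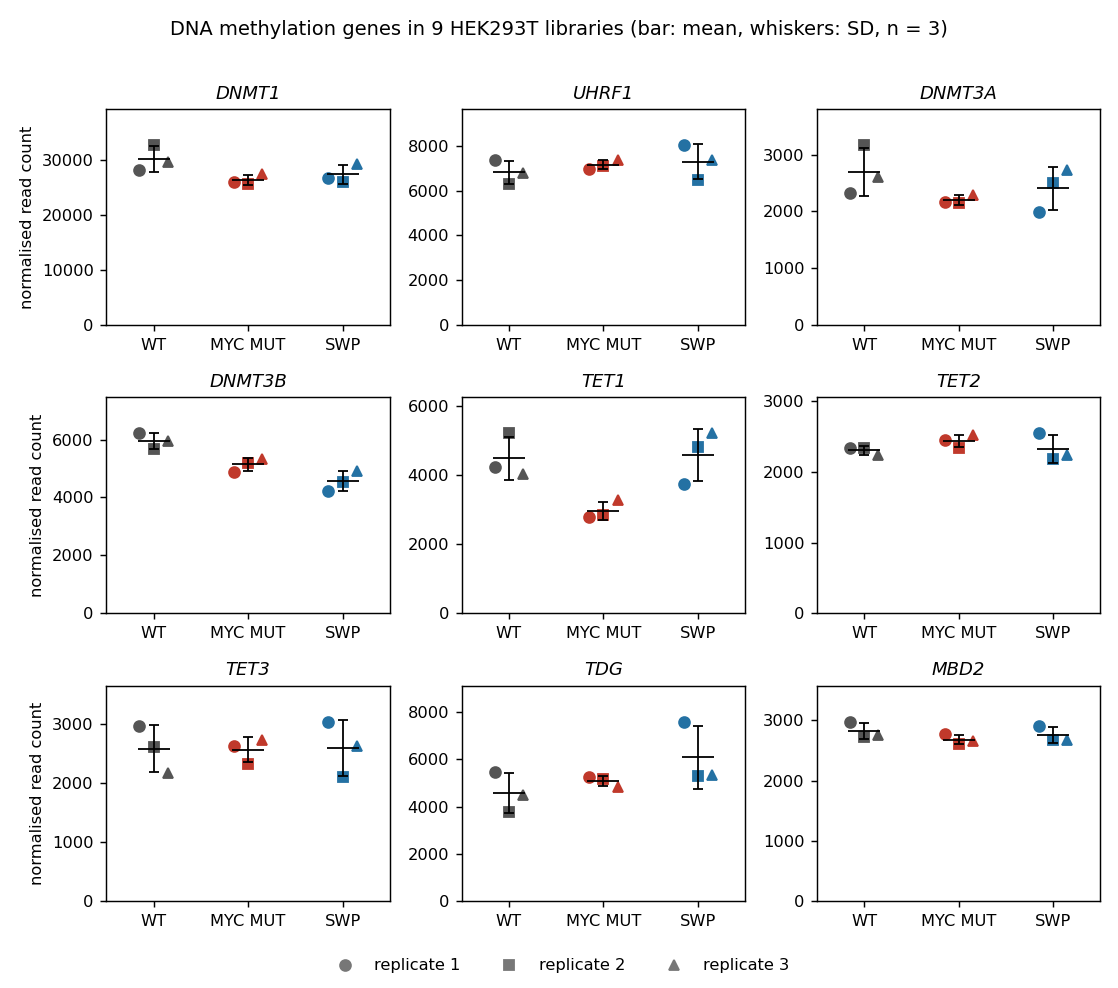
Normalised read counts of the 9 genes in every library, from 0, with the mean and SD of 3 libraries per line and one marker shape per replicate number. TET1 in MYC MUT (2779 to 3273) lies below all libraries of both other lines, and DNMT3B of both edited lines lies below all MYC WT libraries.

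Among the erasers, TET1 alone was called. TET1 (chr10:68560337-68694487, plus strand) is a dioxygenase with a CXXC domain that binds CpG-rich DNA, and it is known for its expression in embryonic stem cells. It had 4221, 5205 and 4024 counts in MYC WT and 2779, 2839 and 3273 in MYC MUT. SWP had 3733, 4802 and 5204 counts. All libraries of MYC MUT were below those of both other lines, and MYC WT and SWP overlapped. In MYC MUT against MYC WT, the log2 fold change of TET1 was -0.59 ± 0.13 (limma, adjusted p = 0.00451), with a 95% interval from -0.88 to -0.30. Against SWP the log2 fold change was -0.62 ± 0.13 (adjusted p = 0.00349, interval from -0.91 to -0.33). SWP differed from MYC WT by 0.026 ± 0.13 (adjusted p = 0.936), with an interval from -0.26 to 0.31. Without replicate 2 of MYC WT, the highest of its line, the fall in MYC MUT was -0.48 with an adjusted p of 0.0186, which kept the test but not the fold, so that 0 of 9 members were then called. Without replicate 1 of MYC WT it was -0.63, and without replicate 1 of SWP the difference of MYC MUT from SWP was -0.76.

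The genes around TET1 were also lower in MYC MUT, by less. The median log2 fold change of the 92 tested genes within 5 Mb was -0.23 for MYC MUT and -0.075 for SWP against MYC WT, and -0.16 in MYC MUT against SWP. The part of that neighbourhood in the fall of TET1 was not tested. Reads could be shared with the processed pseudogene TET1P1, which had 24 to 55.4 counts, and with COX20P1, a pseudogene inside TET1 on the same strand, which had 491 to 672.

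The promoter of TET1 is shown as that of the member that fell most. The 250 bases before its first RefSeq start (GRCh38.p14, chr10:68560087-68560336, plus strand) hold 9 CpG pairs. Capitals again mark 4 copies of GGG with 1 to 7 bases between them.
TET1: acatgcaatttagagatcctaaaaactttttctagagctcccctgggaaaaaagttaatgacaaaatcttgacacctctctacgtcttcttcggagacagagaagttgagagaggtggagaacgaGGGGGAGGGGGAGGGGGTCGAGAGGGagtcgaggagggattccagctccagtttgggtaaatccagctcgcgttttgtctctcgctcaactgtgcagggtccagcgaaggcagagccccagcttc
Here too the match is on the gene's own strand. The 2 other TET1 windows of the table hold none. Over all members, 9 of 20 windows and 5 of 9 genes (UHRF1, DNMT3A, DNMT3B, TET1 and TET3) held such a match, so that it was present also in genes that passed no test. The letters CACGTG, the E-box that MYC with MAX is known to bind, were absent from these windows of TET1 and DNMT3B. They were found in 5 of the 20 windows, of DNMT3A, TET2, TET3 and TDG, and in 6.34% of all windows. Windows of a gene can overlap, as do the 2 of DNMT3A with CACGTG, and each window was counted in these numbers. A match is a description of letters and not of binding.

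**Figure D3:**
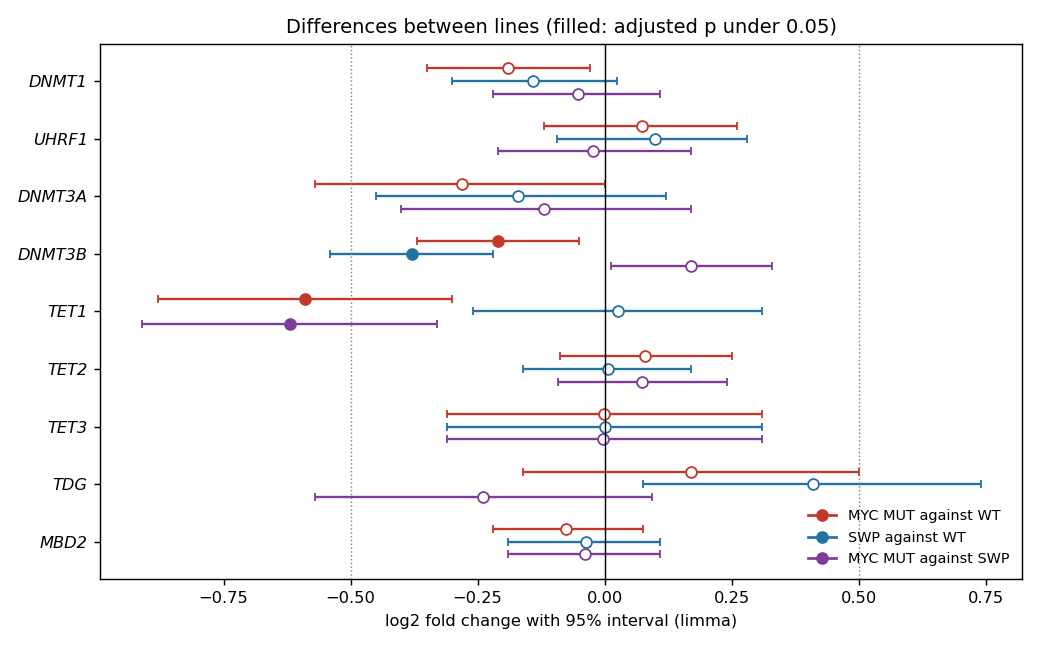
Log2 fold change (limma) of each gene with its 95% interval, for MYC MUT against MYC WT, SWP against MYC WT and MYC MUT against SWP. Filled points have an adjusted p under 0.05 and dotted lines mark 0.5. TET1 lies beyond -0.5 in both comparisons with MYC MUT (-0.59 and -0.62) and near 0 in SWP against MYC WT (0.026).

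The other 2 TET genes passed the test in no comparison, and their lines overlapped. TET2 (chr4:105145875-105279816, plus strand), which lacks a CXXC domain of its own, had 2342, 2344 and 2234 counts in MYC WT, 2451, 2342 and 2521 in MYC MUT, and 2545, 2178 and 2241 in SWP. Its log2 difference from MYC WT had a 95% interval from -0.087 to 0.25 in MYC MUT and from -0.16 to 0.17 in SWP. TET3 (chr2:73984910-74108176, plus strand), the TET enzyme known for its role in the zygote, had 2963, 2604 and 2166 counts in MYC WT, 2622, 2327 and 2734 in MYC MUT, and 3038, 2105 and 2622 in SWP. The interval of its difference from MYC WT ran from -0.31 to 0.31 in each edited line. TET1 counts per TET3 count were 1.74 in MYC WT (1.42 to 2), 1.77 in SWP (1.23 to 2.28) and 1.16 in MYC MUT (1.06 to 1.22). The range of MYC MUT did not overlap either of the other lines (exact permutation test, p = 0.1 for each, the smallest possible). TET2 counts per TET3 count, between 0.79 and 1.03 in the 9 libraries, overlapped in all lines.

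TDG (chr12:103965822-103988874, plus strand), the thymine DNA glycosylase that acts after the TET enzymes, was highest in SWP, at 133% of MYC WT. It had 5470, 3771 and 4475 counts in MYC WT, 5241, 5175 and 4838 in MYC MUT, and 7593, 5295 and 5344 in SWP. Replicate 1 was the highest in each line. The libraries of SWP overlapped those of MYC WT by replicate 1 of the latter, and lay above those of MYC MUT. The log2 fold change in SWP against MYC WT was 0.41 ± 0.15 (limma, adjusted p = 0.123), with an interval from 0.076 to 0.74. This passed by adjusted p when same-numbered libraries were paired as a block (0.00915) and in DESeq2 (0.46, adjusted p = 0.0359), and it met both conditions of a call without replicate 1 of MYC WT (0.54, adjusted p = 0.0342), while without replicate 1 of SWP it was 0.23 (adjusted p = 0.264). MYC MUT differed from SWP by -0.24 ± 0.15 (adjusted p = 0.239), and by the same amount with an adjusted p of 0.0496 under the block.

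TDG has a processed pseudogene that passed no test. TDGP1, also on chromosome 12, had 1642, 1193 and 1346 counts in MYC WT, 1651, 1682 and 1657 in MYC MUT, and 2321, 1604 and 1843 in SWP, with log2 fold changes of 0.46 ± 0.14 in SWP (limma, adjusted p = 0.0609) and 0.27 ± 0.14 in MYC MUT (adjusted p = 0.15) against MYC WT. Reads of both could be placed on either. The 2 summed gave a log2 fold change of 0.42 in SWP against MYC WT (adjusted p = 0.0984). The 66 tested genes within 5 Mb of TDG had a median of 0.28 in SWP and 0.025 in MYC MUT against MYC WT, and their part in the values of TDG was not tested.

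MBD2 (chr18:54151606-54224669, minus strand), the reader that recruits the NuRD complex to methylated CpG, overlapped between all lines. It had 2978, 2725 and 2761 counts in MYC WT, 2764, 2607 and 2662 in MYC MUT, and 2905, 2676 and 2675 in SWP. Its log2 fold change against MYC WT was -0.075 in MYC MUT, with an interval from -0.22 to 0.075, and -0.036 in SWP, with one from -0.19 to 0.11. MBD2 counts per TDG count were 0.624 in MYC WT (0.544 to 0.723) and 0.459 in SWP (0.383 to 0.505), without overlap (exact permutation test, p = 0.1), and 0.527 in MYC MUT (0.504 to 0.55), which overlapped both.

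Over the 9 libraries, the genes whose log2 values ran closest to TET1 were SELENON, with a Pearson correlation of 0.994, CMIP with 0.989 and CAMK1D with 0.982, out of 16867 genes with a mean count of at least 50. These are descriptions over libraries that share 3 lines. SELENON had 10804 to 13559 counts in MYC WT, 8358 to 9466 in MYC MUT and 10238 to 13494 in SWP. CAMK1D, a calcium-dependent kinase that like TET1 lies on chromosome 10, had 1170, 1438 and 1184 counts in MYC WT, 689, 717 and 736 in MYC MUT, and 990, 1426 and 1498 in SWP. Among the other members the correlation with TET1 was highest for DNMT3A (0.770, rank 2429 of the 16867 genes) and DNMT1 (0.680, rank 3402). It was 0.106 for DNMT3B, 0.105 for MBD2, -0.078 for TET3, -0.241 for TDG, -0.336 for UHRF1 and -0.583 for TET2.

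**Figure D4:**
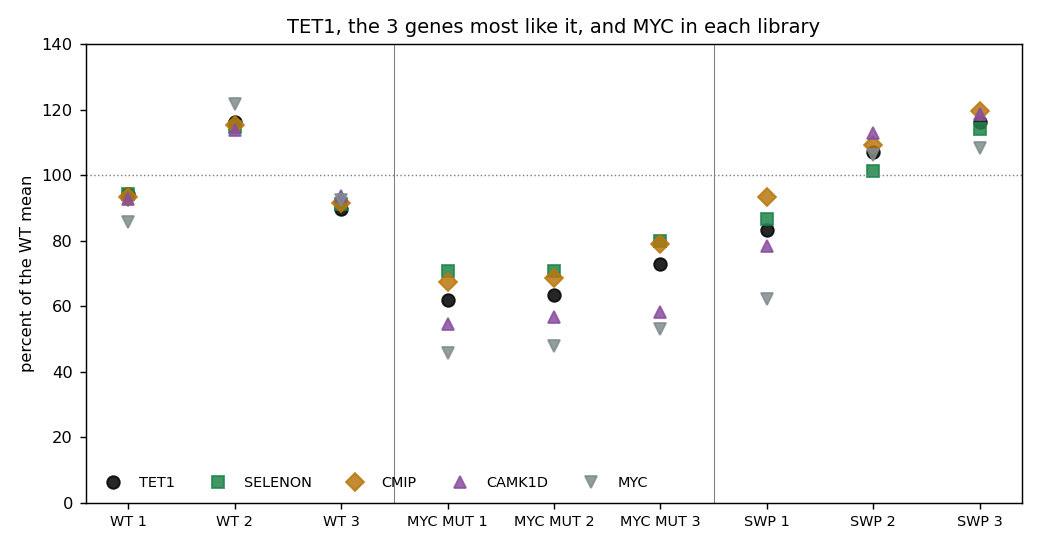
Normalised counts of TET1, of SELENON, CMIP and CAMK1D, and of MYC in each library, as a percent of the mean of MYC WT (dotted line at 100). The means in MYC MUT were 66.1% for TET1, 73.8% for SELENON, 71.6% for CMIP, 56.5% for CAMK1D and 49% for MYC, and replicate 1 is the lowest SWP library for all 5.

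Further genes of the pathway were counted in 9 lists of 115 genes, of which 94 could be tested. Calls in MYC MUT against MYC WT numbered 6 up and 9 down. There were 2 called higher and 3 lower in SWP against MYC WT, and 9 higher and 4 lower in MYC MUT against SWP. The median log2 fold changes, -0.0019, -0.088 and 0.041, were near those over all genes tested (-0.00338, -0.0554 and 0.0439). The shares called, 15, 5 and 13 of 94, stand beside 21.4%, 5.13% and 20.6% of all genes. By the adjusted p alone 21 were higher and 26 lower in MYC MUT against MYC WT, beside 18.6% and 19.8% of all genes. In SWP against MYC WT 7 were higher and 7 lower, beside 4.49% and 5.48%. In MYC MUT against SWP 25 were higher and 19 lower, beside 20.9% and 17.2%.

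Of 9 tested factors that work with DNMT1 and UHRF1 at the replication fork, 1 was called lower in MYC MUT against MYC WT, beside 10.1% of all genes. By the adjusted p alone 5 were lower and 1 higher, beside 19.8% and 18.6% of all genes. LIG1, the DNA ligase that joins Okazaki fragments and is bound by UHRF1, had 6417, 8270 and 7735 counts in MYC WT and 4918, 5416 and 5203 in MYC MUT (log2 fold change -0.52 ± 0.09, limma, adjusted p = 9.71e-04). Without replicate 2 or 3 of MYC WT or replicate 1 of MYC MUT, or at equal totals, it was -0.45 to -0.49 and passed by the adjusted p alone. In SWP, LIG1 had 5851, 6301 and 6062 counts, also all below MYC WT, but passed no test against MYC WT (-0.29, adjusted p = 0.0658). MYC MUT against SWP did not pass either (-0.23, adjusted p = 0.0648). Of 9 tested partners of the de novo enzymes, 2 were called lower in MYC MUT against MYC WT, beside 10.1% of all genes. Both were histone H3K4 demethylases. KDM1B fell by 0.70 ± 0.063 (adjusted p = 1.21e-05), from between 7981 and 8648 counts in MYC WT to between 4984 and 5342, and KDM1A fell by 0.53 ± 0.055 (adjusted p = 3.19e-05), from between 21687 and 22900 to between 15273 and 15816. In SWP against MYC WT none of these partners was called, beside 5.13% of all genes, with 2 higher by the adjusted p alone, beside 4.49%. KDM1A and KDM1B were also lower in MYC MUT than in SWP (-0.52 and -0.53).

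Partners of the TET enzymes and the methionine cycle had members in both directions. OGT, the O-GlcNAc transferase that binds TET proteins, had 14883, 14178 and 14542 counts in MYC WT and 10936, 9965 and 9626 in MYC MUT (-0.52 ± 0.10, adjusted p = 0.00237). Its call was kept under 16 of 20 alternatives. Among the others, at equal totals (-0.44) or without replicate 1 of MYC WT (-0.50) or replicate 3 of MYC MUT (-0.48), it passed by the adjusted p alone. IDH2, a mitochondrial source of the 2-oxoglutarate that TET enzymes consume, fell by 0.63 ± 0.15 (adjusted p = 0.00578). No TET partner was called in SWP against MYC WT among the 10 tested, beside 5.13% of all genes. CXXC5, a CXXC zinc finger protein named here after its values were seen, was 0.38 higher there (limma, adjusted p = 0.0081). It was also 0.43 higher in MYC MUT against MYC WT (adjusted p = 0.00102), and the edited lines differed by 0.049 (adjusted p = 0.631). In the cycle that supplies the methyl donor S-adenosylmethionine, AHCYL1, a relative of the S-adenosylhomocysteine hydrolase, fell by 0.55 ± 0.078 in MYC MUT (adjusted p = 2.79e-04). Its call was kept under 18 of 20 alternatives, and without replicate 2 of MYC WT (-0.47) it passed by the adjusted p alone. MAT1A, the liver form of methionine adenosyltransferase, went opposite ways in the edited lines at low counts: 30.8, 20.2 and 26 in MYC WT, 51.8, 59.3 and 57.5 in MYC MUT (1.12 ± 0.26, adjusted p = 0.00563) and 9.17, 5.2 and 8.07 in SWP (-1.66 ± 0.26, adjusted p = 0.0021). No gene was called among the 10 tested readers other than MBD2 or the 10 tested base repair genes in either comparison with MYC WT, beside 21.4% of all genes in MYC MUT and 5.13% in SWP. By the adjusted p alone, 4 readers were higher and 2 lower, and 3 repair genes higher and 4 lower, in MYC MUT, beside 18.6% of all genes higher and 19.8% lower.

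In the NuRD complex, which MBD2 joins, 1 of 13 genes was called in MYC MUT against MYC WT and 0 in SWP, beside 21.4% and 5.13% of all genes. CHD5, the neural form of its remodelling subunit, had 41, 50.5 and 40.4 counts in MYC WT, 184, 147 and 140 in MYC MUT and 44.7, 36.4 and 34.6 in SWP, a log2 fold change of 1.81 ± 0.18 in MYC MUT (limma, adjusted p = 2.89e-05). By the adjusted p alone 2 subunits were higher, CHD5 included, and 4 lower in MYC MUT, beside 18.6% and 19.8% of all genes.

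Germline genes are a class that promoter methylation usually keeps silent in somatic cells, and most of those listed stayed low in all lines. Of 21, 5 reached the mean count of 10 needed for a test and 2 had no read. Of the 5, 2 were called higher and 2 lower in MYC MUT against MYC WT, beside 11.3% and 10.1% of all genes. In SWP against MYC WT 1 was called higher and 2 lower, beside 2.15% and 2.98%. HORMAD1, a meiotic chromosome axis protein, had 17.4, 55 and 48.1 counts in MYC WT, 3.7, 6.8 and 0.974 in MYC MUT and 1.15, 4.46 and 1.15 in SWP (limma, -3.15 ± 0.60, adjusted p = 0.00187, and -3.66 ± 0.60, adjusted p = 0.00297). It reached the mean count of 10 only through MYC WT (mean of 40.2, beside 3.83 in MYC MUT and 2.25 in SWP). Its 2 calls as lower are therefore not independent of that minimum. STK31 had 26.7, 28.1 and 39.5 counts in MYC WT, 14.8, 17.5 and 14.6 in MYC MUT and 14.9, 11.1 and 20.8 in SWP, with log2 fold changes of -0.94 (adjusted p = 0.019) and -0.98 (adjusted p = 0.0453). SYCE2, of the synaptonemal complex, had 41, 59.5 and 53.9 counts in MYC WT, 110, 157 and 151 in MYC MUT (1.42 ± 0.22, adjusted p = 4.70e-04) and 91.7 ± 19 in SWP (mean and SD, n = 3; limma, 0.82 ± 0.22, adjusted p = 0.0368). TEX14, a protein of the intercellular bridges of germ cells, rose in MYC MUT by 1.14 ± 0.18 (adjusted p = 6.46e-04). In SWP, STK31 lost its call under 13 of 19 alternatives, among them the omission of any 1 library except replicate 3 of SWP (-1.09 to -0.78), and in MYC MUT without replicate 3 of MYC WT (-0.77, adjusted p = 0.0776) or replicate 1 or 3 of MYC MUT (-0.91 and -0.90). SYCE2 in SWP lost it under 9 of 20, among them the omission of replicate 1 or 3 of MYC WT and of replicate 2 or 3 of either edited line (0.66 to 0.86).

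S-phase genes were counted since DNMT1 and UHRF1 are expressed most in replicating cells. Of 20, 2 were called higher and 1 lower in MYC MUT against MYC WT, beside 11.3% and 10.1% of all genes. By the adjusted p alone 5 were higher and 1 lower, beside 18.6% and 19.8%. In SWP against MYC WT 1 was higher and 1 lower by that measure, beside 4.49% and 5.48%. In MYC MUT against SWP 10 were higher and 1 lower, beside 20.9% and 17.2%. Calls with the fold there were 1 higher and 1 lower, beside 12.3% and 8.31%. RRM2, a subunit of ribonucleotide reductase, had 16588, 13133 and 14015 counts in MYC WT and 23062, 22184 and 20295 in MYC MUT (0.59 ± 0.10, adjusted p = 0.00111). FEN1, the flap endonuclease of lagging-strand synthesis, rose in MYC MUT by 0.58 ± 0.11 (adjusted p = 0.00206) and in SWP by 0.51 ± 0.11 (adjusted p = 0.0151). Both calls were lost without replicate 2 of MYC WT (0.48 and 0.41). The call in SWP was kept under 15 of 20 alternatives, and was lost also without replicate 3 of MYC WT (0.48) or replicate 1 of SWP (0.41). CDT1, the licensing factor that is degraded as S phase begins, fell by 0.98 ± 0.19 in MYC MUT (adjusted p = 0.00212). It had 14069, 23624 and 20048 counts in MYC WT, 8812, 9203 and 10691 in MYC MUT and 13473, 18908 and 21153 in SWP. The part of S-phase genes in the values of DNMT1 and UHRF1 was not tested.

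**Figure D5:**
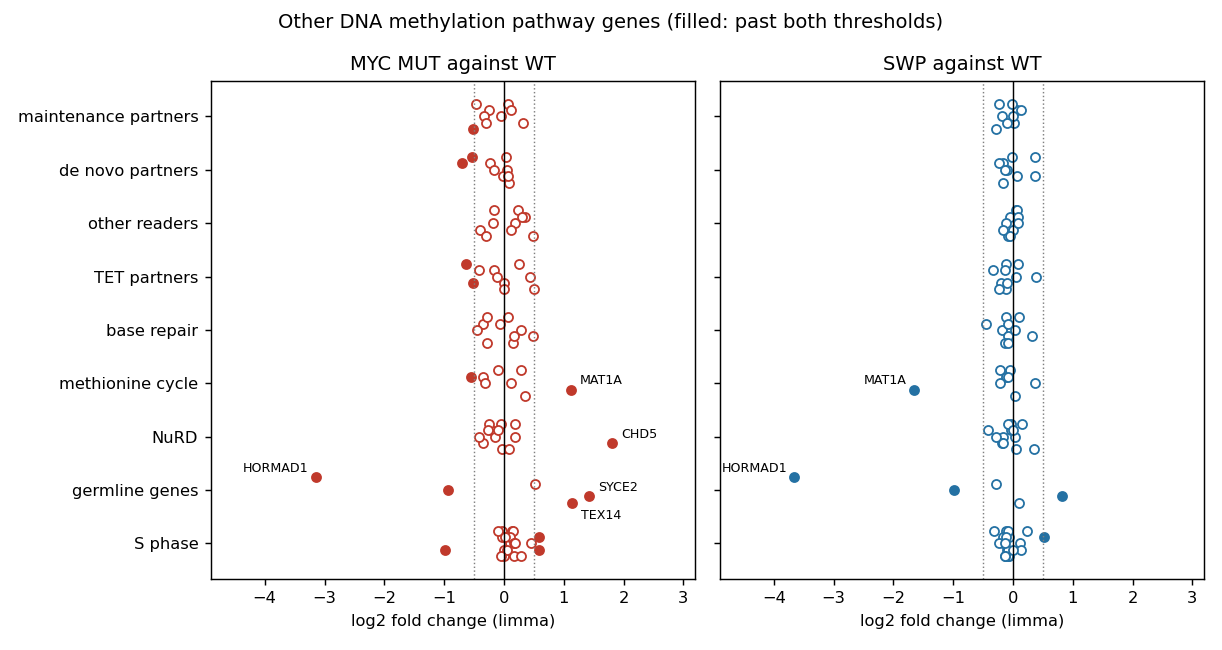
Log2 fold changes (limma) of the 94 tested genes in 9 lists of the DNA methylation pathway, for MYC MUT and SWP against MYC WT. Filled points passed both thresholds (15 and 5 genes), dotted lines mark 0.5, and names are given for those beyond 1, of which HORMAD1 at -3.15 and -3.66 lies farthest out. HORMAD1 reached the minimum count for a test only through MYC WT.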

How the data were processed

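The authors enriched polyadenylated RNA and prepared directional libraries. Per the paper and the labels, reads of 75 cycles were aligned to hg38 with bwa mem (0.7.17-r2188 in the submitters' processing notes), which does not join reads across introns, and duplicates were removed with Picard. The counting tool and its use of strand are not given in the sources used here. The deposited values, a signal at or above 0, are read counts of each gene over a DESeq2 size factor of the library, as the authors computed them. Whole reads were recovered from 100% of the values (tolerance 0.001 reads) and used for alternatives only.

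limma 3.58.1 in R 4.3.3 (lmFit, eBayes with a trend) was fitted to log2(normalized count + 1) of all 9 libraries for genes with a mean of at least 10, with Benjamini-Hochberg adjustment over 20884 genes, and fold changes are on that scale. Errors are SE for fold changes and SD for means. Levels per kb use exon lengths of GENCODE release 44, with all annotated exons of a gene merged. This release matched 57754 of 58336 identifiers and is later than the one named in the paper. Promoter windows come from RefSeq. Replicates are biological replicates by their titles. Same-numbered libraries deviated together over genes in SWP and MYC WT (correlations of 0.555, 0.403 and 0.102) and in MYC MUT and SWP (0.333, 0.241 and 0.232). Each was above 0.1, and they were taken as paired there. Replicate 3 of SWP, however, correlated better with replicate 2 of MYC WT (0.263) than with replicate 3. The pairing of SWP with MYC WT is therefore uncertain, and with it the paired p-values of that comparison. The fits, intervals and permutation tests reported are unpaired, and the paired value is given for each member whose test result it changes.

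The members and lists were chosen with earlier results of these data known. Named genes are the 9 members, MYC, the genes called with the largest change in each list (up to 4 for each comparison with MYC WT) and the 3 most like a called member. Alternatives were other pseudocounts, minimum counts, scalings and thresholds, fits of 2 lines, the replicate block, edgeR 4.0.16 and DESeq2 1.42.0 on recovered reads, and leaving out each library. Adding TDG and TDGP1 together was chosen after seeing the data. In simulated data for MYC MUT against MYC WT with 200 of 20884 genes changed, limma recovered 46% of those changed 1.5-fold and 94% of those changed 3-fold. In the data 38.4% of all genes passed by the adjusted p alone, so the adjustment is stricter in the simulation. A 1.5-fold change also lies close to the fold needed for a call. These shares are therefore not the recovery in the data. Figures used matplotlib 3.10.9. Of the 213 samples listed, those of other assays were not analysed here.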

Additional observations from a re-analysis of the deposited data

How the results depend on the processing

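The call of TET1 in MYC MUT against MYC WT held under 19 of 20 other fits and lost its fold, not its test, without replicate 2 of MYC WT. Leaving out each library in turn gave 0 to 1 member called in MYC MUT against MYC WT, 0 to 1 in SWP against MYC WT (1 without replicate 1 of MYC WT) and 13 to 21, 2 to 4 and 11 to 14 pathway genes in the 3 comparisons. By the adjusted p alone, 2, 1 and 1 of 9 members and 47, 14 and 44 of 94 pathway genes passed, beside 38.4%, 9.97% and 38% of all genes. With a log2 fold beyond 1 there were 0, 0 and 0 members and 5, 2 and 3 pathway genes, a setting at which the share of all genes was not taken. The 5 pathway genes called in SWP against MYC WT became 3 with any count or without a trend, and 2 at a minimum mean of 50 or with only the 2 lines fitted. The fall of DNMT3B in MYC MUT passed in 10 of 20 alternatives. KDM1A fell by 0.46 in MYC MUT with equal totals, short of the fold. The cause of these losses was not tested.

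Members near 0 changed sign, with no test passed. TET3 in MYC MUT against MYC WT was at 0.074 with equal totals, 0.014 with equal upper quartiles, 0.0058 in edgeR and 0.00072 in DESeq2, and at -0.12 to 0.11 when single libraries were left out. MBD2 was at 0.00014 with equal totals in MYC MUT, and in SWP at 0.014 with equal totals, 0.011 in edgeR, 0.01 in DESeq2 and -0.075 to 0.0037 without single libraries. Against SWP, MYC MUT was at 0.0027 for UHRF1 and 0.023 for TET3 with equal totals, and without single libraries at -0.10 to 0.049 for UHRF1, -0.14 to 0.12 for TET3 and -0.062 to 0.00072 for MBD2. In SWP against MYC WT such ranges were -0.073 to 0.17 for TET1, -0.062 to 0.05 for TET2, -0.12 to 0.14 for TET3 and -0.29 to 0.12 for MYC. For log2 ratios they were -0.081 to 0.20 (DNMT3B to DNMT3A, MYC MUT against MYC WT), -0.12 to 0.018 (DNMT1 to UHRF1, MYC MUT against SWP), -0.16 to 0.29 (TET1 to TET3, SWP against MYC WT), and -0.015 to 0.18 and -0.093 to 0.10 (TET2 to TET3, MYC MUT and SWP against MYC WT).

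The pairing of MYC MUT with MYC WT is uncertain too. Same-numbered libraries of these lines had correlations of 0.328, 0.146 and 0.049, the last below the 0.1 that the other comparisons exceeded. Replicate 3 of MYC MUT correlated better with replicate 2 of MYC WT (0.0911). The block was fitted to all 9 libraries at once, so it pairs these lines as well. With the replicate number as a block, DNMT1 (-0.19, adjusted p = 0.0223) and DNMT3A (-0.28, adjusted p = 0.0255) passed the test there, and the block changed no other call of a member beside those of DNMT3B and TDG in the report. No member had fewer than 1982 normalised counts in a library, and 3 libraries per line limit the estimate of the spread.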

Other observations

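Some genes outside the rule for named genes were noticed after their values were seen, and are given as values. HELLS and CDCA7, which form a nucleosome remodeller that DNA methylation of silent heterochromatin is known to need, were both below MYC WT in the mutant line by the adjusted p alone, while ZBTB24 of the same list was above it (0.32, adjusted p = 0.0165). The log2 fold change (limma) was -0.30 ± 0.10 (SE) for HELLS (adjusted p = 0.0363) and -0.46 ± 0.072 for CDCA7 (adjusted p = 5.87e-04). CDCA7 had 14483, 15960 and 16184 normalised counts in MYC WT, 11483, 11857 and 10664 in MYC MUT, and 13038, 14034 and 12459 in SWP. Both edited lines lay below MYC WT for CDCA7, and its difference of SWP from MYC WT missed the test (-0.24, adjusted p = 0.0634), as did HELLS (0.013, adjusted p = 0.958).

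Among the pathway genes called higher in MYC MUT against SWP, ZBTB4 and NEIL2 fell just short of the fold against MYC WT. ZBTB4, a zinc finger reader of methylated CpG, had 1766, 1477 and 1483 counts in MYC WT, 2140, 2154 and 2309 in MYC MUT, and 1571, 1402 and 1560 in SWP (0.54 ± 0.089 against SWP, limma, adjusted p = 6.69e-04, and 0.49 against MYC WT). NEIL2, a glycosylase of base excision repair, had 1118, 993 and 1052 counts in MYC WT, 1510, 1458 and 1455 in MYC MUT, and 992, 1027 and 972 in SWP (0.56 ± 0.075 against SWP, adjusted p = 1.64e-04, and 0.48 against MYC WT).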
